A study of Mus musculus with 6 samples.

Results

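Transforming growth factor beta (TGF-beta) signalling was described in long-term haematopoietic stem cells (LT-HSCs) through 10 genes. They were chosen for their role in the pathway and not by a measured value, although earlier results of these data were known. The genes were the ligand Tgfb1, the receptors Tgfbr1, Tgfbr2 and Tgfbr3, the signal transducers Smad2, Smad3 and Smad4, the inhibitory Smad7, and the corepressors Ski and Skil. All 10 were found among the 55357 gene identifiers of the count table, and all 10 passed the filter on low counts, as did 14592 genes in all. The cells came from young mice, 3 of genotype Dcaf8 KO and 3 wild-type (WT), and the comparison addressed how loss of Dcaf8, a substrate receptor of CUL4 ubiquitin ligases, changes stem cell gene expression. The labels give no allele, exact age, strain or sex. Each library was made from 50 bone marrow cells sorted as Lin-Sca-1+c-Kit+CD150+CD48-, so every value is a mean over few cells, and fewer cells expressing a gene cannot be told apart from less RNA per cell.

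In this pathway a TGF-beta dimer, released from a latent complex, brings together the type II receptor kinase TGFBR2 and the type I receptor kinase TGFBR1, and TGFBR1 then phosphorylates SMAD2 and SMAD3. These join SMAD4, enter the nucleus and switch target genes on or off with partner factors, while SMAD7 blocks the receptor and SKI and SKIL silence the SMAD complex on DNA. In bone marrow the pathway is best known for holding stem cells in quiescence, with latent ligand activated in the niche around them.

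Total counts per library were 14461864 to 22386387 in knockouts and 17790290 to 20881139 in WT animals. Dcaf8 was at 74.3, 38.1 and 45.2 CPM (counts relative to library size, after TMM scaling except for cell type and sex markers) in knockout replicates 1 to 3, against 290.5, 292.7 and 203.8 CPM in WT replicates 1 to 3, so that knockouts held 20.03% of the WT level. The groups did not overlap, and the log2 fold change was -2.28 ± 0.28 (SE) with an adjusted p of 0.739 by edgeR and 1.83e-09 by DESeq2. An exact two-sided permutation test gave p = 0.1, the smallest that 3 against 3 libraries allow. The stem cell genes Kit, Mecom, Meis1, Procr and Slamf1 were counted in every library, as was Flt3, a gene of more advanced progenitors. The surface marker gene Cd48, low in sorted cells, was at most at 34.4 CPM in knockouts and 11.7 CPM in WT cells. Of the 6 libraries 3 stood apart. WT replicate 2 held 6217 CPM summed over 10 listed neutrophil granule genes, against at most 29.4 CPM elsewhere. Knockout replicate 3 alone held appreciable Xist (50.7 CPM, against at most 1.24 CPM) and no Ddx3y, Uty or Kdm5d. WT replicate 3 had the fewest genes with a count, 15244, against 16508 to 17015 in knockouts and 16393 and 16183 in the other WT libraries.

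None of the 10 genes was called higher or lower in Dcaf8 KO cells. The test was edgeR's quasi-likelihood test on the raw counts with Benjamini-Hochberg adjustment over all genes, at an adjusted p under 0.05, and the smallest adjusted p among the 10 was 0.837. Across all genes edgeR also called 0 (0%), limma-voom called 0 and DESeq2 called 154 (0.934%), and none of the 10 was called by any of these tools. At an unadjusted p under 0.05 there was 1 of the 10, Tgfb1, where 5.82% of all genes tested reached that level. Every knockout lay above every WT library for 1 of the 10, again Tgfb1, as for 5.91% of all genes. None of the 10 had every knockout below every WT library, as 4.43% of all genes did. In knockouts 6 of the 10 had the higher fitted value and 4 the lower, with a median log2 fold change of 0.29 against 0.01 over all genes tested. That median was -0.01 without knockout replicate 1, 0.45 without knockout replicate 2, 0.65 without WT replicate 1, 0.17 without WT replicate 2 and 0.16 without WT replicate 3.

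**Figure D1:**
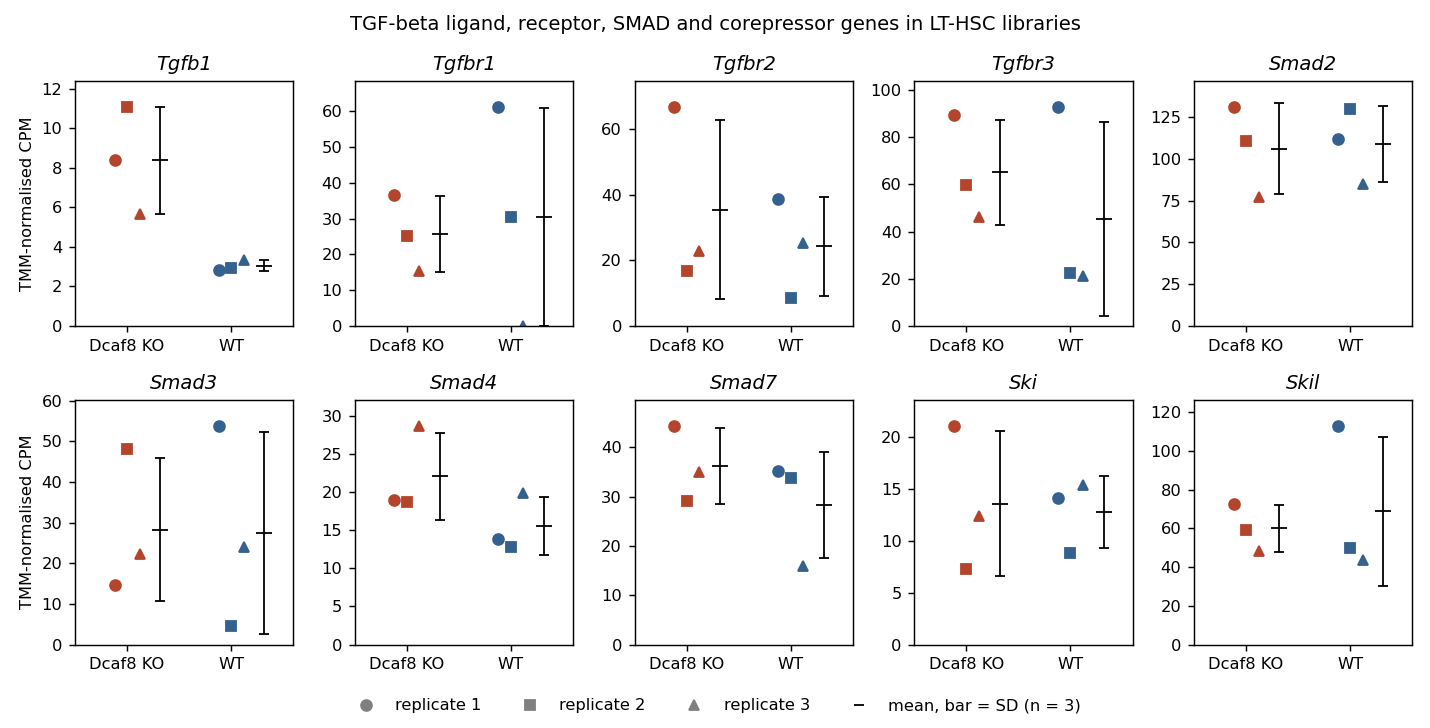
TMM-normalised CPM of each of the 10 genes in the 3 Dcaf8 KO libraries (red) and the 3 WT libraries (blue), with the replicate number as symbol and the mean and SD beside each group. In the Tgfb1 panel the knockout points sit at 5.65 to 11.1 CPM, all above the WT points at 2.81 to 3.35 CPM, and in the other panels the groups overlap.

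The ligand gene Tgfb1 (ENSMUSG00000002603) was the least abundant of the 10 and had the largest fitted difference. It stood at 8.42, 11.1 and 5.65 CPM in knockout replicates 1 to 3, from 192, 159 and 125 counts, against 2.81, 2.96 and 3.35 CPM in WT replicates 1 to 3, from 50, 61 and 66 counts. The groups did not overlap, and the WT libraries lay closer together than the knockouts. The means were 8.38 ± 2.71 CPM in knockouts and 3.04 ± 0.277 CPM in WT cells (SD, n = 3 per group). The fitted log2 fold change was 1.40 ± 0.53 (SE), with a 95% interval of 0.19 to 2.61 and an unadjusted edgeR p of 0.0279, which did not pass adjustment over all genes (adjusted p = 0.837 by edgeR and 0.310 by DESeq2). Leaving out each library in turn gave 1.21 to 1.64. Neutrophils, macrophages and platelets also express TGF-beta1. Tgfb1 was not raised in WT replicate 2, where neutrophil genes were abundant, and without that library and knockout replicate 3 together the log2 fold change was 1.61. Summed megakaryocyte and platelet markers (7 of 7 counted) ranged over 758 to 1252 CPM in knockouts and 629 to 1044 CPM in WT libraries, and single markers went both ways. Gp9, a subunit of a platelet adhesion receptor, was at 139, 113 and 113 CPM in knockouts and 84.8, 102 and 95.1 CPM in WT libraries, without overlap. The platelet chemokine gene Ppbp was at 2.32, 0 and 5.46 CPM in knockouts and 4.83, 22.5 and 22.8 CPM in WT libraries. Macrophage and monocyte markers (6 of 7 counted, with Adgre1 at 0 in every library) summed to 411 to 573 CPM in knockouts and 445 to 963 CPM in WT libraries. Most of that sum was the lysozyme gene Lyz2. Single markers of this list also went both ways. Cd68, a lysosomal gene of macrophages, did not overlap between groups and was higher in knockouts, as Tgfb1 was. It stood at 36.7, 69.8 and 18.5 CPM in knockouts and 8.32, 18.2 and 15.3 CPM in WT libraries. C1qb did not overlap either but was lower in knockouts, at 1.97, 2.28 and 0 CPM, against 6.18, 11.2 and 10.6 CPM in WT libraries. The part of these cell types in the Tgfb1 values was not tested.

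RefSeq promoter windows, from 250 bases before to 50 after a start site, were available for 5 of the 10 genes. Those of the ligand and of the receptor pair that binds it are shown, because they are the first steps of the pathway and differ in base composition. Capitals mark GC boxes (GGGCGG on either strand, the letters bound by Sp1 family factors) and CCAAT boxes (CCAAT on either strand), with overlapping matches merged. The windows are on build GRCm38.p6, at chr7:25686752-25687051 on the plus strand for Tgfb1, chr4:47352972-47353271 on the plus strand for the first of the Tgfbr1 start sites and chr9:116175314-116175613 on the minus strand for Tgfbr2. Each is written 5′ to 3′ in the direction of transcription.
Tgfb1: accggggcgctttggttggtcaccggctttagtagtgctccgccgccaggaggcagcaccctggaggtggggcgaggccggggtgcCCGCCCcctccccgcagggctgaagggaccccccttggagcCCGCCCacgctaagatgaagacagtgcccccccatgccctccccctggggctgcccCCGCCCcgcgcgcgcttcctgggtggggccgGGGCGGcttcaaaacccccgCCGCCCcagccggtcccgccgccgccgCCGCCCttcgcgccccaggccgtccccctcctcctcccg
Tgfbr1: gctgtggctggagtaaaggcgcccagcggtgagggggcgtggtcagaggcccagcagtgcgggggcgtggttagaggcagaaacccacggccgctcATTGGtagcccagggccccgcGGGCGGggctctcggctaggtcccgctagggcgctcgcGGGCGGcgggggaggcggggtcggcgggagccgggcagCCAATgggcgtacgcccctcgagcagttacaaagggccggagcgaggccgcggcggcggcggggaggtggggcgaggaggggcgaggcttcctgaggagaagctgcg
Tgfbr2: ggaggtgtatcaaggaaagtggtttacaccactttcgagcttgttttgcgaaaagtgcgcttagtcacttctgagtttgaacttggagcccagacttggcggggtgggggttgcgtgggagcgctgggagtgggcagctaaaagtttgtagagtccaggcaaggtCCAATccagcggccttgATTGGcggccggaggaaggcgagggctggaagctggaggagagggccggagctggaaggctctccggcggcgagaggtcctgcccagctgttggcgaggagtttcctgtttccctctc

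The Tgfb1 window was 77.0% G and C and held 6 GC boxes and no CCAAT box. Of 32851 promoter windows of the same length and any base composition, 1.35% held 6 or more GC boxes. The Ski window, not shown, also held 6, at 85.3% G and C. The Tgfbr1 window was 74.7% G and C, with 2 GC boxes and 2 CCAAT boxes. The Tgfbr2 window was 59.0% G and C, with no GC box and 2 CCAAT boxes, against a median of 52.7% G and C over all windows. A GC box was present in 35.7% and a CCAAT box in 37.4% of all windows. The 5-letter SMAD box CAGAC, searched on both strands, was found in the Tgfbr2 window and in the second Tgfbr1 window, and in 49.6% of all windows. The palindromic SMAD motif GTCTAGAC was in none of the 6 windows of these genes and in 0.213% of all. These matches are letters in a sequence and were not tested for binding.

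The type I receptor gene Tgfbr1 (ENSMUSG00000007613) stood at 36.6, 25.1 and 15.3 CPM in knockout replicates 1 to 3, against 61.1, 30.3 and 0.0507 CPM in WT replicates 1 to 3. WT replicate 3 held 1 Tgfbr1 count, against 339 to 834 counts in knockouts and 1085 and 626 in the other WT libraries. That library lacked other genes in the same way, since 85 of the 14592 genes tested had at most 3 counts there and at least 10 CPM in each of the other 5 libraries, against 2 to 8 such genes for every other library. The means were 25.6 ± 10.6 CPM in knockouts and 30.5 ± 30.5 CPM in WT cells (SD, n = 3 per group). The log2 fold change was -0.20 ± 0.87 (SE) by edgeR, with a 95% interval of -2.23 to 1.82 that spans a large fall and a large rise. It was -0.80 without WT replicate 3 and 0.73 without WT replicate 1, so the direction is not determined by these libraries.

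The type II receptor gene Tgfbr2 (ENSMUSG00000032440) was high in 1 knockout. It stood at 66.8, 16.7 and 22.8 CPM in knockout replicates 1 to 3, against 38.9, 8.68 and 25.4 CPM in WT replicates 1 to 3. Knockout replicates 2 and 3 lay inside the range of the WT libraries. The log2 fold change was 0.66 ± 0.67 (SE), with a 95% interval of -0.91 to 2.23, and was -0.23 without knockout replicate 1, 0.23 without WT replicate 2 and 1.15 without WT replicate 1. The coreceptor gene Tgfbr3 (ENSMUSG00000029287), whose product betaglycan presents ligand to the type II receptor, stood at 89.5, 59.7 and 46.2 CPM in knockouts, against 92.7, 22.5 and 21.0 CPM in WT cells. All 3 knockouts lay above WT replicates 2 and 3 and below WT replicate 1. Its log2 fold change was 0.58 ± 0.59 (SE, 95% interval -0.80 to 1.95). It was 0.24 without knockout replicate 1, 0.24 without WT replicate 2, 0.22 without WT replicate 3 and 1.59 without WT replicate 1, and the adjusted p in the last case was 0.467 by edgeR.

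**Figure D2:**
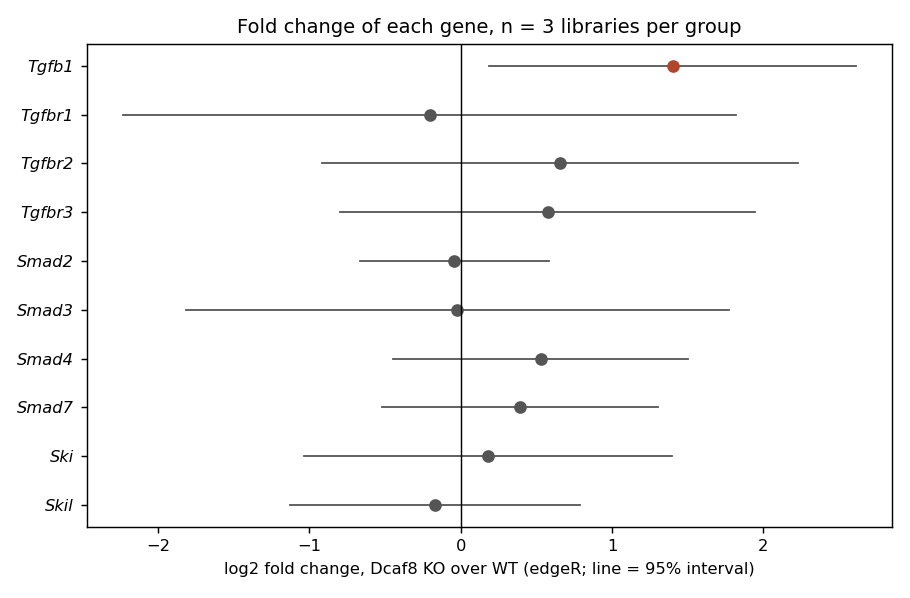
Fitted log2 fold change of Dcaf8 KO over WT for the 10 genes (points), with 95% intervals from edgeR (lines), n = 3 libraries per group. The interval of Tgfb1 (red, 0.19 to 2.61) lies to the right of 0, before any adjustment for the number of genes, and the other 9 intervals span 0.

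Of the receptor-activated SMAD genes, Smad2 (ENSMUSG00000024563) was the steadiest. It stood at 131, 111 and 76.9 CPM in knockouts, against 112, 130 and 85.1 CPM in WT cells, replicates 1 to 3 in each. The ranges nearly coincided, and the log2 fold change was -0.04 ± 0.27 (SE) with a 95% interval of -0.67 to 0.58, the narrowest of the 10. On a linear scale that interval runs from 0.631 to 1.496 times the WT level. Smad3 (ENSMUSG00000032402) varied far more, at 14.6, 48.1 and 22.2 CPM in knockouts and 53.8, 4.56 and 23.95 CPM in WT cells. The group means were close, 28.3 ± 17.6 CPM in knockouts and 27.4 ± 24.8 CPM in WT cells (SD, n = 3 per group), although single libraries differed more than 10-fold. The log2 fold change of Smad3 was -0.02 ± 0.77 (SE, 95% interval -1.81 to 1.77), and without WT replicate 1 it was 0.89.

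Smad4 (ENSMUSG00000024515), the common partner of the activated SMADs, stood at 18.9, 18.7 and 28.7 CPM in knockouts, against 13.9, 12.8 and 19.9 CPM in WT cells. Only WT replicate 3 reached the knockout range. The log2 fold change was 0.53 ± 0.42 (SE), with a 95% interval of -0.45 to 1.50 and an unadjusted edgeR p of 0.245, and it was 0.28 without knockout replicate 3.

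The inhibitory gene Smad7 (ENSMUSG00000025880), itself induced by TGF-beta in many cell types, stood at 44.4, 29.2 and 35.0 CPM in knockouts, against 35.1, 33.7 and 15.9 CPM in WT cells. The lowest value was that of WT replicate 3, and the other WT libraries lay inside the knockout range. Its log2 fold change was 0.39 ± 0.39 (SE, 95% interval -0.52 to 1.30), which was 0.21 without knockout replicate 1 and 0.0989 without WT replicate 3. The corepressor gene Ski (ENSMUSG00000029050) stood at 21.1, 7.24 and 12.4 CPM in knockouts, against 14.1, 8.77 and 15.4 CPM in WT cells. Here the knockouts spread on both sides of the WT libraries, with a log2 fold change of 0.18 ± 0.52 (SE), which was -0.30 without knockout replicate 1. Its relative Skil (ENSMUSG00000027660), which encodes SnoN and is another feedback target of the pathway, stood at 72.8, 59.0 and 48.5 CPM in knockouts, against 113, 49.9 and 43.6 CPM in WT cells. WT replicate 1 was the highest, and the log2 fold change of -0.17 ± 0.41 (SE) became 0.36 without it.

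Divided by exon length, which allows levels to be compared between genes, Smad2 came first and Tgfb1 last. Lengths were unions of annotated exons from GENCODE M21 on GRCm38, while the counts were made on mm39, and some bases of the Tgfbr3 exons are shared with the predicted gene Gm43422. Smad2 averaged 12.1 ± 3.10 CPM per kb in knockouts and 12.4 ± 2.57 in WT cells. The order over the mean of the 6 libraries then ran Tgfbr3 (8.44 CPM per kb), Smad7 (7.12), Skil (6.65), Smad4 (5.07), Smad3 (5.03), Tgfbr1 (4.30), Tgfbr2 (3.65), Ski (2.37) and Tgfb1 (1.13). No 2 neighbours in that order were separated, since the ranges over the 6 libraries overlapped for each pair. The ends were apart, with Smad2 at 8.76 to 14.9 CPM per kb and Tgfb1 at 0.558 to 2.195. Smad2 ranked first or second in every library, and Tgfb1 between eighth and last.

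**Figure D3:**
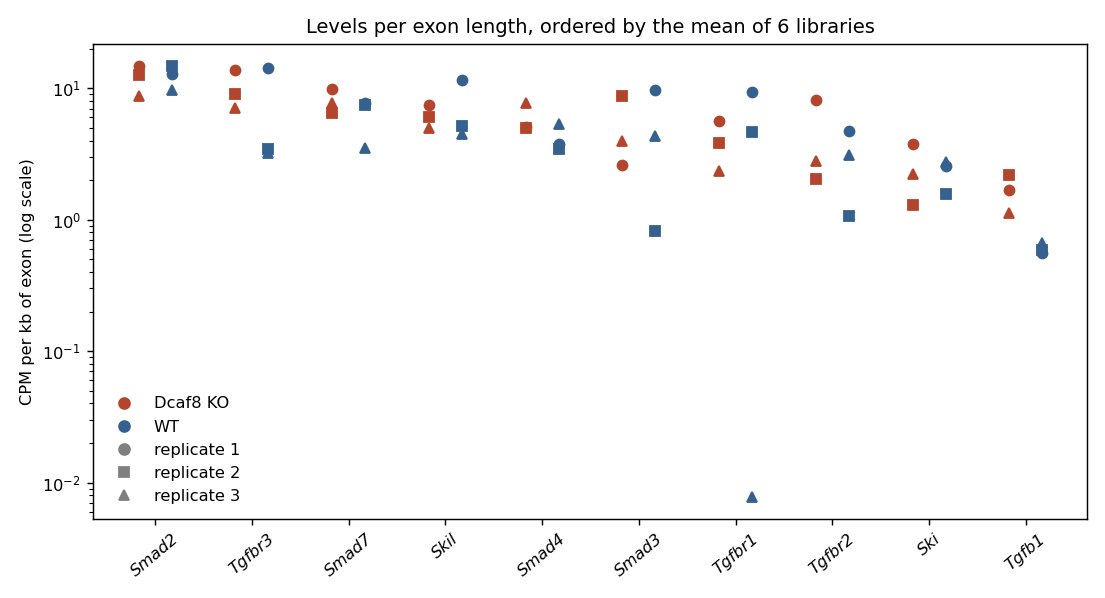
CPM per kb of exon (log axis) for the 10 genes in each Dcaf8 KO (red) and WT (blue) library, ordered by the mean of the 6 libraries. The single low point is Tgfbr1 in WT replicate 3, at 0.00777 CPM per kb.

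Ratios taken within a library, which do not depend on scaling between libraries, overlapped between genotypes for all 6 pairs examined. Per kb, Smad4 over Smad2 was 0.342, 0.399 and 0.883 in knockouts and 0.294, 0.234 and 0.553 in WT cells. Smad7 over Smad2 was 0.659, 0.512 and 0.883 in knockouts, against 0.610, 0.504 and 0.362 in WT cells, and its lowest value came from WT replicate 3. Tgfbr1 over Tgfbr2 was 0.686, 1.88 and 0.843 in knockouts, and 1.97, 4.38 and 0.00251 in WT cells. Which receptor was the more abundant therefore changed between libraries of 1 genotype, in WT cells only through WT replicate 3, with 1 Tgfbr1 count. Differences between animals, between samples of 50 cells and between library preparations cannot be told apart here.

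The genes also varied among libraries of the same genotype. In knockouts 7 of the 10 were highest in replicate 1, and in WT animals 6 of the 10 were highest in replicate 1, where 33.9% and 35.9% of all genes tested were. The 5 genes Tgfbr1, Tgfbr2, Tgfbr3, Smad7 and Skil were highest in replicate 1 of both genotypes, as were 13.4% of all genes tested. The 10 genes summed to 504, 385 and 314 CPM in knockouts and to 537, 304 and 254 CPM in WT cells. These counts were noticed in the values, and the labels do not say that animals with the same number share a litter or day. The coefficient of variation between libraries had a median of 33.2% over the 10 genes in knockouts and 46.9% in WT cells. It was 29.0% and 37.9% over 8589 genes with mean levels in the same range.

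**Figure D4:**
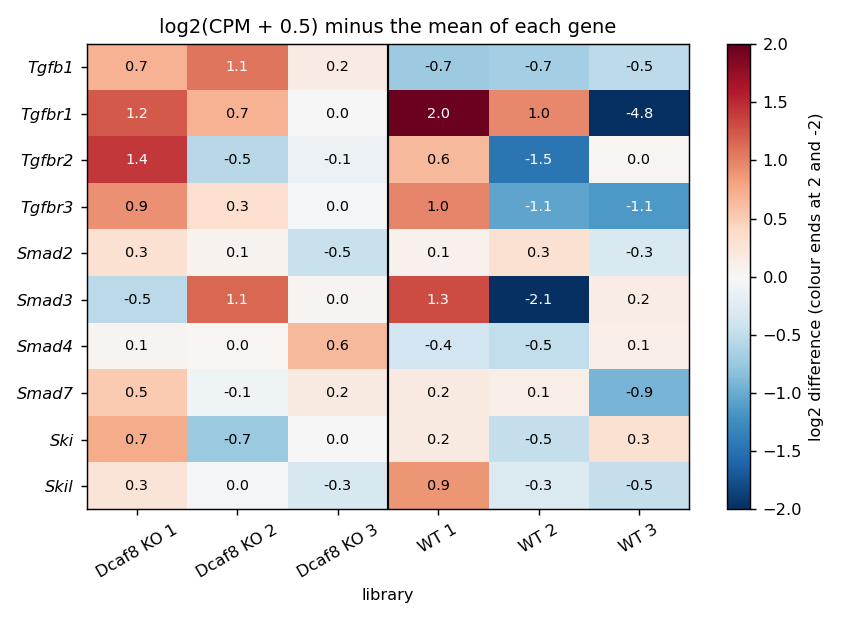
Heat map of log2(CPM + 0.5) minus the mean of each gene over the 6 libraries, with Dcaf8 KO libraries left of the line and WT libraries right of it. Replicate 1 of each genotype holds mostly values above the mean, with median values over the 10 genes of 0.61 in knockout replicate 1 and 0.42 in WT replicate 1, and Tgfb1 is the row that divides by genotype.

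The genes whose profiles lay closest to those of the receptor pair were found by the root mean square difference of centred log2 levels over the 6 libraries, among 11481 genes with a mean of at least 5 CPM. For Tgfbr1 they were Ttpal (0.207), Mtmr9 (0.285) and Cep170 (0.352), all nearly uncounted in WT replicate 3, where the median gene differed by 2.29. For Tgfbr2 they were Miga2 (0.227), Tsc2 (0.247) and Mettl4 (0.277), with a median of 1.01. Of the other 9 genes, Ski was nearest to Tgfbr2 (0.540) and Tgfbr3 was nearest to Tgfbr1 (1.78), and the receptors differed from each other by 2.35. The receptors lay furthest apart in WT replicate 3, at centred levels of -4.84 for Tgfbr1, from 1 count, and 0.04 for Tgfbr2. With 6 libraries and so many genes, close profiles are a description only.

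The remaining genes of the pathway were read in 5 lists. Of 91 genes in these lists 66 were tested, and edgeR called 0 of them higher and 0 lower in Dcaf8 KO cells at an adjusted p under 0.05, with 3 higher and 3 lower at an unadjusted p under 0.05. Over all genes tested 506 were higher and 343 lower at that level, together 5.82%. Every knockout lay above every WT library for the tested list genes Itgb6, Runx1 and Id3, and below for Crebbp, Bambi and Tsc22d1. Over all genes tested 5.91% and 4.43% did so. Limma-voom called 0 of the 66. DESeq2 called 2, Itgb6 and Bambi, against its background of 0.934% over all genes. Itgb6, at 0 counts in every WT library, passed the low-count filter only through the knockouts. These 2 calls are therefore no measure of the lists as a whole.

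Genes of latent TGF-beta and its activation were mostly sparse. Of 14 listed genes 7 were tested, 3 (Tgfb2, Ltbp2 and Fbn1) had no count in any library, and the median log2 fold change of the 7 was 0.27. Itgb6, a subunit of the epithelial integrin that releases TGF-beta from its latent complex, held 159, 242 and 92 counts in knockouts, equal to 6.97, 16.8 and 4.16 CPM, and 0 counts in all 3 WT libraries. The pooled knockout level of Itgb6 was 163-fold above a floor of 3 counts over the pooled WT libraries, a bound that covers counting error only. The edgeR fit of Itgb6 gave a far wider 95% interval, from 11.1-fold to 155400-fold higher in knockouts. The adjusted p was 0.744 by edgeR and 3.86e-06 by DESeq2, and edgeR's adjusted p ranged up to 1.00 when libraries were left out. Lrrc32, which encodes the latent TGF-beta carrier GARP and was too sparse to be tested, held 344 counts in knockout replicate 1, 1 in replicate 2 and 0 in replicate 3 and in every WT library. It is named here for its values. Across the 5 lists Zfyve9, Itgae, Ltbp1, Tgfb3 and Itgb8 also had counts in knockouts only, 149, 66, 35, 8 and 8 in sum. Cdkn2b went the other way, with 7 counts in WT replicate 2 and 0 in knockouts. Knockout libraries had on average 852 more genes with a count than WT libraries. Nrros, a myeloid carrier of latent TGF-beta1, was the most abundant of the list at 388, 426 and 364 CPM in knockouts and 356, 473 and 499 CPM in WT cells. Ltbp4, a latent TGF-beta binding protein gene, stood at 3.55, 0.626 and 0 CPM in knockouts and 1.63, 1.21 and 12.4 CPM in WT cells.

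In the parallel branch of bone morphogenetic proteins and activins 12 of 22 listed genes were tested and none was called, with a median log2 fold change of -0.015 and 6 genes on each side. Bmpr1a, Bmpr1b, Inhbb and Smad9 had no count in any library. Eng, the coreceptor endoglin, was the most abundant at 350, 256 and 271 CPM in knockouts and 320, 293 and 227 CPM in WT cells. Smad5, a transducer of this branch, stood at 46.1, 38.3 and 14.9 CPM in knockouts and 53.6, 42.7 and 66.1 CPM in WT cells, with a log2 fold change of -0.72 ± 0.43 (SE). That value was -0.34 without knockout replicate 3 and -1.13 without knockout replicate 1. Acvr2b, an activin type II receptor gene, stood at 16.3, 9.81 and 14.4 CPM in knockouts and 8.67, 10.8 and 1.93 CPM in WT cells.

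Of 17 SMAD cofactor and partner genes 15 were tested and none was called, with a median log2 fold change of -0.01. The nuclear corepressor gene Ncor1 stood at 200.0, 192 and 169 CPM in knockouts and 189, 306 and 292 CPM in WT cells (log2 fold change -0.49 ± 0.21, SE). The acetyltransferase gene Ep300 stood at 20.3, 6.40 and 15.4 CPM in knockouts and 42.9, 35.7 and 19.99 CPM in WT cells, with a log2 fold change of -1.12 ± 0.49 (SE). Only WT replicate 3 of Ep300 fell into the knockout range. Fos, an AP-1 partner of the SMADs, was the most abundant at 2778, 2692 and 2937 CPM in knockouts and 2649, 3333 and 3554 CPM in WT cells. Of the 15, every knockout lay above every WT library for 1, Runx1, and below for 1, the Ep300 relative Crebbp. The shares over all genes tested were 5.91% and 4.43%.

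Genes that turn over or dampen the receptors and SMADs included Bambi, which had the smallest unadjusted p by edgeR of the 5 lists (0.00847). This gene encodes a decoy receptor with no kinase domain that competes with type I receptors and is itself induced by the pathway. It stood at 21.2, 21.6 and 9.59 CPM in knockouts, against 37.6, 78.6 and 242 CPM in WT cells, so every knockout lay below every WT library and the WT libraries differed widely. The means were 17.4 ± 6.81 CPM in knockouts and 119 ± 108 CPM in WT cells (SD, n = 3 per group). The log2 fold change was -2.82 ± 0.79 (SE), with a 95% interval of -4.68 to -0.96, and -1.78 without WT replicate 3. Adjusted over all genes the p was 0.739 by edgeR and 0.0110 by DESeq2, so the call depends on the tool. Of 18 genes in the list 17 were tested, 5 with a positive and 12 with a negative log2 fold change, and the median was -0.25. Usp15, a deubiquitinase of the receptor and SMADs, stood at 162, 147 and 105 CPM in knockouts and 143, 208 and 255 CPM in WT cells. Fkbp1a, whose product keeps unliganded TGFBR1 silent, stood at 295, 350.5 and 335 CPM in knockouts and 319, 404.5 and 345 CPM in WT cells.

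Target genes reported for TGF-beta in various cell types showed no common direction. Of 20 listed genes 15 were tested, none was called, 7 had a positive and 8 a negative log2 fold change, and the median was -0.27. Tsc22d1, a TGF-beta-stimulated gene, stood at 1256, 1339 and 885 CPM in knockouts, against 1567, 1484 and 1640 CPM in WT cells, without overlap (log2 fold change -0.43 ± 0.15, SE). Without knockout replicate 3, the library with Xist, the log2 fold change was -0.27. Klf11, a TGF-beta-inducible early gene, stood at 128, 128 and 84.7 CPM in knockouts and 87.4, 55.2 and 70.3 CPM in WT cells, on the other side (log2 fold change 0.68 ± 0.27, SE). Rgs1, a regulator of G protein signalling, was the most abundant at 1104, 1703 and 854 CPM in knockouts and 1964, 1521 and 1203 CPM in WT cells. Id3, a dominant-negative helix-loop-helix gene, was higher in every knockout than in every WT library, at 19.4, 34.7 and 33.9 CPM in knockouts against 18.3, 7.85 and 0.0507 CPM in WT cells. WT replicate 3, which held 1 Id3 count, was also the library with 1 Tgfbr1 count. Cdkn1c, the cell cycle inhibitor p57 linked to stem cell quiescence, stood at 96.2, 73.9 and 52.3 CPM in knockouts and 86.3, 103 and 109 CPM in WT cells. Crebbp, Runx1, Id3, Cdkn1c, Cdkn2b and Lrrc32 were named after their values were seen, as were Zfyve9, Itgae, Ltbp1, Tgfb3 and Itgb8. So were the cell type markers Gp9, Ppbp, Cd68 and C1qb.

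**Figure D5:**
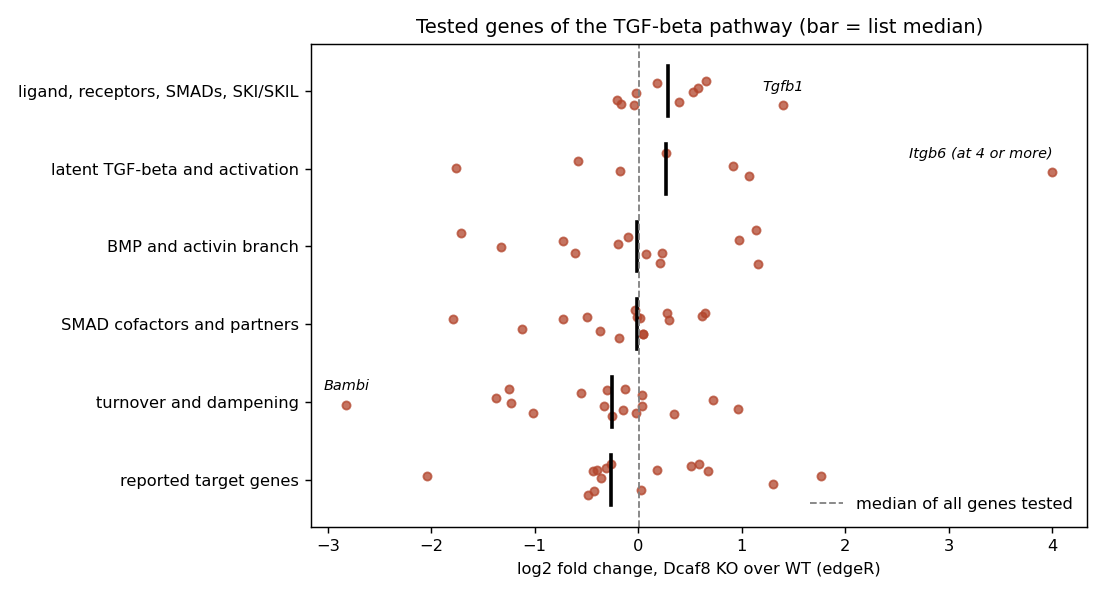
Fitted log2 fold change of Dcaf8 KO over WT for every tested gene of 6 gene lists of the pathway (points, each a gene), with the median of each list (bar) and that of all genes tested (dashed line). Medians run from 0.29 for the ligand, receptor, SMAD and corepressor genes to -0.27 for reported target genes, and Itgb6, uncounted in WT libraries, is drawn at 4.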

How the data were processed

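The deposited table of raw counts per Ensembl gene has 1 column per library, made by the authors without pooling. Trimmomatic 0.39, HISAT2 2.2.1, Picard 2.26.1, HTSeq 1.99.2, DESeq2 1.38.3 and build mm39 are named without roles, per the submitters' processing notes; the sources used here give neither strand setting nor annotation release. Per the labels, full-length cDNA was amplified, tagmented and sequenced without molecular identifiers, so floors of 3 counts cover counting error only.

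Groups and replicate numbers came from the labels. edgeR 4.0.16 (R 4.3.3) was run over all genes after filterByExpr (count minimum 10, total minimum 15), using TMM scaling, robust dispersions and a robust quasi-likelihood fit (legacy off), with genotype as the only term, and p-values adjusted by Benjamini-Hochberg. Standard errors came from the F statistic. Levels of pathway genes and Dcaf8 are TMM-normalised CPM; those of cell type and sex markers, single or summed, are CPM of total counts. DESeq2 1.42.0, limma-voom (limma 3.58.1) and the other alternatives are given in the closing section. The fits were also run on simulated counts with known changes. Gaps in single libraries, such as those of WT replicate 3, were not part of that simulation.

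Of 55357 identifiers 52081 matched a symbol. The 10 genes and all lists were chosen with earlier results of these data known. Named from each list were the 2 genes with the smallest p and the most abundant. The labels do not say that replicate numbers pair animals, and deviations of same-numbered libraries correlated at 0.07, -0.03 and 0.01 (Pearson, across genes), so no block was used.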

Additional observations from a re-analysis of the deposited data

How the results depend on the processing

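None of the 10 genes was called under any processing. Every setting except DESeq2 called 0 of all genes tested, so the absence of calls there says nothing particular about the 10. Under 15 alternatives (RLE or upper-quartile factors, no filter, at least 5 CPM in 3 libraries, DESeq2, limma-voom with sample weights, a replicate block, the legacy quasi-likelihood fit, each library left out, and WT replicate 2 with knockout replicate 3 left out, the last added after seeing the data) 0 of the 10 were called. Of 150 single-gene values 133 kept their direction, and Tgfb1, Tgfbr3, Smad4 and Smad7 kept it throughout. Leaving out single libraries moved the median of the 10 between -0.01 and 0.65. With the replicate block the median was 0.24 and no gene was called, but the labels do not say whether the numbers pair the libraries. Reversed values were 1.39 for Tgfbr1 and 0.90 for Smad3 by limma-voom, 0.0304 for Smad3 by DESeq2 and 0.0431 by the legacy fit, and 0.11 for Tgfbr1 and 0.31 for Smad2 with both libraries left out; the cause was not tested. Ranges over single left-out libraries were -0.80 to 0.73 for Tgfbr1, -0.23 to 1.15 for Tgfbr2, 0.22 to 1.59 for Tgfbr3, -0.25 to 0.16 for Smad2, -0.56 to 0.89 for Smad3, -0.30 to 0.41 for Ski, -0.42 to 0.36 for Skil, -4.35 to 0.11 for Ltbp4 and -0.0869 to 0.17 for Eng. DESeq2 called 2 of the other pathway genes, and it called Dcaf8 (log2 fold change -2.32, adjusted p = 1.83e-09), which no edgeR or limma-voom setting did. Genes with an unadjusted p under 0.05 numbered 849, against 559 by the legacy fit and 1445 without WT replicate 1. Without length scaling 3 of the 10 kept their place in the order of levels. With 50 cells and 3 animals per group, the intervals of Tgfbr1, Smad3 and Ski span changes of more than 2-fold in both directions, and those of the other 7 do not.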
